A study of Homo sapiens with 12 samples.

Results

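The comparison set RNA from the polyribosomal (poly) fraction against RNA from the free fraction of wild type (WT) MCF10A cells. MCF10A is an established, non-tumorigenic human mammary epithelial cell line. The libraries were chosen by their labels alone, without any measured value: the 2 WT poly libraries and the 2 WT free libraries, 4 of the 12 libraries of the series. All 4 came from WT cells at fewer than 20 passages, grown with horse serum, insulin, EGF, hydrocortisone and cholera toxin. The cells were treated with cycloheximide, which stops elongating ribosomes on the mRNA, and the lysates were spun through a linear sucrose gradient of 10 to 50%. The 2 WT monoribosomal (mono) libraries served to estimate the spread between replicates and are given beside the others as an intermediate level. The 6 libraries of CBFB_KO cells were not part of the comparison. Replicates are separate samples by their labels, but nothing says that they came from separate cultures, so the p-values measure the spread between these samples, which may be technical.

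During translation the small ribosomal subunit, with initiation factors, loads on the capped 5′ end of an mRNA and scans to the start codon. An mRNA that is initiated often carries many ribosomes and sediments deep in the gradient with the polyribosomes, whereas an mRNA that is not initiated stays near the top in the free fraction with other ribonucleoproteins. A single ribosome gives the monoribosomal peak. Long coding regions hold more ribosomes than short ones, noncoding RNA is usually outside the polyribosomes, and mitochondrial mRNA is translated by the ribosomes of the mitochondrion. The poly minus free change therefore describes, gene by gene, the normal polysome loading of mRNA in these cells. It is relative to the other RNA of the same fraction, because the library of each fraction is scaled to its own total, and it does not give the share of a gene's mRNA that was on polyribosomes.

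The free libraries held 62371939 and 62678148 expected counts and the poly libraries 63886726 and 50451339. Between 10925 and 12004 genes reached 1 CPM, a count scaled to a common library total, in these 4 libraries. Over the genes tested, the log2 CPM of the poly libraries correlated with each other (Pearson's r = 0.973, across genes) more closely than those of the free libraries (r = 0.876). The TMM factors, which correct each library's scale for its composition, were 0.907 and 1.002 in the free libraries and 1.32 and 1.46 in the poly libraries. All 12 basal mammary epithelial markers reached 1 CPM in each of the 4 libraries, for instance KRT5 at 1340 to 5210 CPM before TMM scaling and TP63 at 4.12 to 24.8 CPM. Of the 7 luminal markers 4 did so, KRT8 and KRT18 among them, while PGR was at 0 counts in all 4 libraries. None of the 6 fibroblast markers and neither matched endothelial marker reached 1 CPM in all 4, and CD68 alone of the 4 leukocyte markers did.

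Of 15737 genes tested, 1485 (9.44%) were higher and 1093 (6.95%) were lower in the poly than in the free libraries by edgeR's quasi-likelihood test at an adjusted p under 0.05. Every one of these genes differed by more than 2-fold, and in every one the 2 poly libraries did not overlap the 2 free libraries. Without regard to the test, both poly libraries lay above both free libraries in 5614 genes (35.7%) and below them in 4365 genes (27.7%). The shares called and the shares without overlap are the background for the list counts below. The median log2 change over all genes tested was 0.06, and 5% of genes lay below -2.86 and 5% above 3.41. In 78 of the higher genes both free libraries were at 0 counts, and in 15 of the lower genes both poly libraries were, so no fold is given for them. The number of calls rested on the poly libraries. With poly replicate 1 left out 139 genes were higher and 28 lower, and with poly replicate 2 left out 0 were called in either direction by edgeR, with 2781 genes at an unadjusted p under 0.05. Leaving out free replicate 2 gave 2950 higher and 1647 lower, and leaving out free replicate 1 gave 1378 and 1093. Every call given below for a list or a gene was lost without poly replicate 2. Scaling by library totals alone shifted the median log2 change by 0.54 and turned the split from 57.6% higher among the called genes to 82.5% higher (2522 higher and 534 lower).

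**Figure D1:**
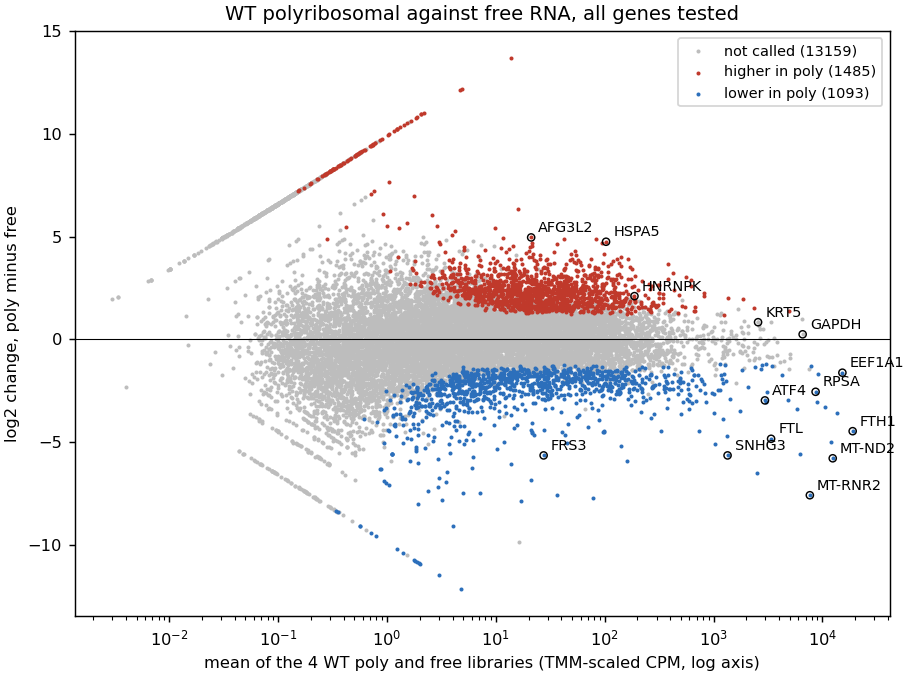
Log2 change of poly minus free (vertical axis) against the mean of the 4 WT poly and free libraries in TMM-scaled CPM (horizontal log axis), 1 point for each of the 15737 genes tested. Red points are the 1485 genes higher in poly, blue points the 1093 lower, and circled genes are named in the text. The diagonal lines of points at low levels are genes at 0 counts in one of the fractions.

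Among the 12 protein-coding genes with the largest increases were chaperones of the endoplasmic reticulum and cytosol, mitochondrial enzymes and regulators of chromatin and the nucleolus. HSPA5 (chromosome 9, 125234853 to 125241330, GRCh38), the main Hsp70 chaperone of the endoplasmic reticulum, stood at 6.43 and 8.34 CPM in the free libraries, 8.15 and 15.8 CPM in the mono libraries and 85.7 and 311 CPM in the poly libraries. Both poly libraries were far above the others, with poly replicate 2 the higher. The log2 change was 4.75 ± 0.71 (SE, n = 2 a fraction, edgeR adjusted p = 0.00903). PDIA3, a disulfide isomerase of the same compartment, went from 5.99 and 8.23 CPM in free to 98.1 and 266 CPM in poly (log2 change 4.68 ± 0.60). AFG3L2, a subunit of the m-AAA protease of the inner mitochondrial membrane, had the largest increase, from 1.86 and 0.764 CPM to 35.5 and 46.3 CPM (log2 change 4.96 ± 0.57, edgeR adjusted p = 0.00658). FH, the fumarase of the citric acid cycle, went from 1.91 and 3.57 CPM to 54.4 and 109.8 CPM. In PDIA3, AFG3L2 and FH both mono libraries lay between the free and the poly libraries, and in HSPA5 mono replicate 1 was below free replicate 2.

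APP, the amyloid precursor protein, measured 5.11 and 5.68 CPM in free and 76.8 and 246 CPM in poly (log2 change 4.90). RRM1, the large subunit of ribonucleotide reductase, measured 1.75 and 1.43 CPM against 21.7 and 60.9 CPM (4.70). SMARCA4, the ATPase of SWI/SNF chromatin remodelling complexes, measured 3.22 and 2.37 CPM against 46.4 and 93.5 CPM (4.64). The remaining genes of the leading 12 were AIFM1 (apoptosis inducing factor of mitochondria, 4.55), TARS1 (threonyl-tRNA synthetase, 4.50), NOLC1 (a nucleolar phosphoprotein, 4.29), SCPEP1 (a serine carboxypeptidase, 4.28) and CCT5 (a subunit of the cytosolic chaperonin, 4.17). In all 12 the higher of the poly values was that of replicate 2. All 12 remained called by edgeR without poly replicate 1, with an adjusted p of 0.0476.

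Among protein-coding genes the largest decreases fell on mitochondrially encoded mRNAs, on FTL and on a group of nuclear genes of moderate level. FRS3, an adaptor of the fibroblast growth factor receptors, measured 38.6 and 69.1 CPM in free, 9.51 and 5.77 CPM in mono and 1.05 and 1.07 CPM in poly (log2 change -5.66 ± 0.55, edgeR adjusted p = 0.00536). IDS, the lysosomal iduronate sulfatase, fell from 327 and 218 CPM to 7.66 and 7.27 CPM (log2 change -5.19 ± 0.53). NFKBID, an atypical inhibitor of NF-kappaB, fell from 46.3 and 39.9 CPM to 2.06 and 1.37 CPM (-4.65). In each of the 3 genes every poly value was far below every free value, with the mono values between.

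OGFRL1 (log2 change -4.56), TAF1D (a subunit of the RNA polymerase I selectivity factor, -4.52) and MARCHF2 (a membrane-bound ubiquitin ligase, -4.50) completed the nuclear genes of this group. MARCHF2 measured 251 and 128 CPM in free, 62.8 and 41.3 CPM in mono and 8.77 and 7.95 CPM in poly. Both mono values of this gene lay between the free and the poly values. Reads of a gene were assigned without a stated strand setting, so overlapping or intronic transcripts within such genes cannot be told apart from the spliced mRNA.

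All 13 mitochondrially encoded mRNAs were lower in poly and none was higher, against 6.95% and 9.44% of all genes tested. Their log2 changes ran from -5.80 to -3.06, with a median of -3.61. These mRNAs encode subunits of the respiratory chain and ATP synthase. MT-ND2, a subunit of complex I, measured 7657 and 41260 CPM in free, 3380 and 9440 CPM in mono and 433 and 447 CPM in poly (log2 change -5.80 ± 0.89, edgeR adjusted p = 0.00922). Free replicate 2 was several times free replicate 1 for this gene, while the poly libraries differed little. MT-CO3, of cytochrome oxidase, measured 31483 and 18433 CPM in free and 2069 and 2030 CPM in poly (log2 change -3.61 ± 0.41). MT-CO2 measured 22805 and 15329 CPM in free, 15540 and 25839 CPM in mono and 1855 and 1953 CPM in poly (-3.32). Of the other complex I mRNAs, MT-ND1 changed by -5.59, MT-ND4L by -5.09, MT-ND4 by -5.01 and MT-ND3 by -4.72 on the log2 scale. MT-ND4 and MT-ND4L overlap on the mitochondrial genome, so reads in their overlap are uncertain. Mitochondrially encoded genes together took 11.1% and 20.8% of all counts in the free libraries, 4.20% and 8.08% in the mono libraries and 1.26% and 1.39% in the poly libraries. Taking these genes out before scaling left 1486 higher and 1092 lower genes. Without poly replicate 1, 1 of the 13 was called.

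Among genes of noncoding types more were lower than higher in poly. Of 460 long intergenic noncoding RNA genes 3 were higher and 70 (15.2%) lower, with a median log2 change of -1.63. Of 820 antisense genes 3 were higher and 102 (12.4%) lower (median -1.38), and of 144 processed transcripts 1 was higher and 36 lower (median -1.73). Of 12853 protein-coding genes 1439 (11.2%) were higher and 733 (5.70%) lower, with a median of 0.26. Gene types are those of GENCODE 29, and strand was not stated, so antisense genes can hold reads of their partners.

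Among genes of other types with a mean of at least 20 CPM, the largest decreases were those of the mitochondrial ribosomal RNAs. MT-RNR2, the large one, measured 10992 and 19536 CPM in free, 212 and 807 CPM in mono and 71.7 and 85.9 CPM in poly (log2 change -7.60 ± 0.78, edgeR adjusted p = 0.00594). MT-RNR1, the small one, changed by -6.52 on the log2 scale. BCYRN1, a short cytoplasmic RNA that represses initiation in neurons, changed by -5.94, but its entry overlaps other transcripts and its reads are uncertain. MIR23AHG, the host transcript of a microRNA cluster, measured 56.4 and 117 CPM in free and 3.003 and 2.23 CPM in poly (-5.05). KRT87P, a keratin pseudogene, was the only gene of a noncoding type that met the naming rule among increases, from 32.0 and 16.7 CPM to 98.6 and 71.2 CPM (1.80 ± 0.45, edgeR adjusted p = 0.0318). It can share reads with the keratin genes it resembles.

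Host genes of small nucleolar RNAs carry those RNAs in their introns, and their spliced transcripts have short reading frames that end early. Of the 21 measured, 17 were lower in poly and none was higher, against 6.95% and 9.44% of all genes tested. The median log2 change was -2.26. SNHG3 measured 2573 and 2705 CPM in free, 155 and 267 CPM in mono and 62.8 and 41.3 CPM in poly (log2 change -5.66 ± 0.49, edgeR adjusted p = 0.00536). SNHG16 measured 676 and 1482 CPM in free and 98.8 and 104 CPM in poly (-3.41). GAS5 and SNHG5 showed another pattern, in which the mean of mono was higher than that of free. GAS5 measured 2299 and 1599 CPM in free, 2054 and 2619 CPM in mono and 370 and 337 CPM in poly (-2.46 ± 0.37). SNHG5 measured 943 and 1195 CPM in free, 1699 and 2517 CPM in mono and 119 and 146 CPM in poly (-3.02 ± 0.39). Only 3 of the 17 calls were left without poly replicate 1.

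A list of long noncoding RNAs had 13 measured members. Of these 3 were lower in poly and none higher, against 6.95% and 9.44% of all genes tested. The median log2 change of the 13 was -1.95. The list was drawn up as nuclear-retained, but it also holds RNAs known from the cytoplasm, such as NORAD, CYTOR and OIP5-AS1. DESeq2 called 6 lower. The 3 called by edgeR were PVT1 (179 and 140 CPM in free, 33.1 and 25.5 CPM in poly, -2.44), OIP5-AS1 (62.7 and 51.0 CPM in free, 102 and 169 CPM in mono, 6.75 and 10.6 CPM in poly, -2.71) and MALAT1 (5.75 and 5.25 CPM against 0.591 and 0.816 CPM, -2.96), the last named after its values were seen. CYTOR (40.5 and 43.5 CPM in free, 86.3 and 109 CPM in mono, -1.13, edgeR adjusted p = 0.0757) and NORAD (28.4 and 22.8 CPM in free, 32.4 and 94.2 CPM in mono, 16.2 and 20.9 CPM in poly, -0.46, adjusted p = 0.580) did not pass the test, and NORAD turned to 0.10 when libraries were scaled by their totals alone. None of the 3 was called without poly replicate 1.

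**Figure D2:**
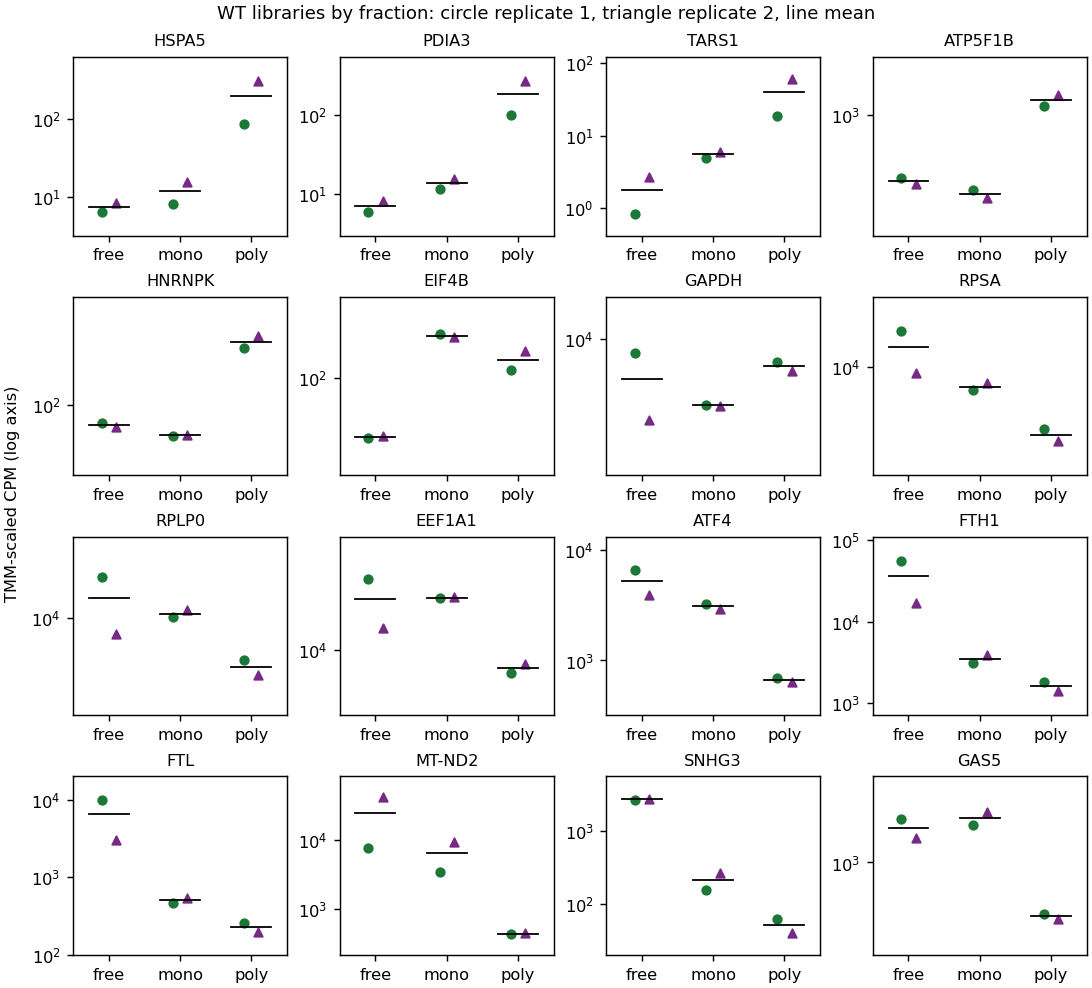
TMM-scaled CPM (vertical log axis, a different range in each panel) of 16 genes in the WT free, mono and poly libraries, with circles for replicate 1, triangles for replicate 2 and lines for the mean. HSPA5, PDIA3 and TARS1 rise stepwise to poly, and FTH1, FTL and SNHG3 fall from free to mono and on to poly. EIF4B, GAS5 and, by a small margin, EEF1A1 have their highest mean in mono.

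Iron regulates the ferritin mRNAs through a stem-loop in the 5′ UTR, the iron-responsive element, whose loop binds the iron regulatory proteins and holds back initiation when iron is scarce. FTL (chromosome 19, 48965301 to 48966878, GRCh38) encodes the ferritin light chain and FTH1 (chromosome 11, 61959718 to 61967660) the heavy chain. The windows below are shown because both mRNAs carry the loop letters of that element. They were read from the GENCODE 29 transcripts, at chr19:48965335-48965364 on the plus strand for FTL and chr11:61967573-61967602 on the minus strand for FTH1, and capitals mark the letters CAGTGN, searched on the transcript strand only.
FTL: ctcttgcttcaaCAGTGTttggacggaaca
FTH1: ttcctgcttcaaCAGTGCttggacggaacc
The same letters were found in the 5′ UTR of 2904 of 12398 protein-coding genes tested (23.4%), so the match alone is common. Of those 2904 genes 10.0% were higher and 5.99% lower in poly, against 11.3% and 5.62% of all 12398.

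FTH1 measured 55521 and 17150 CPM in free, 3156 and 3902 CPM in mono and 1829 and 1428 CPM in poly. Free replicate 1 was the highest, and every free value was above every mono and poly value. The log2 change was -4.48 ± 0.59 (edgeR adjusted p = 0.00704). FTL measured 10054 and 3008 CPM in free, 472 and 536 CPM in mono and 256 and 199 CPM in poly (log2 change -4.85 ± 0.61, edgeR adjusted p = 0.00690). Together these genes made up 5.65% and 1.93% of all TPM, a length-scaled level that sums to the same total in every library, in the free libraries and 0.29% and 0.26% in the poly libraries. Both lost their call without poly replicate 1.

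The list of mRNAs controlled by polyamines or iron had 14 measured members. In poly 4 were lower and 1 was higher, against 6.95% and 9.44% of all genes tested. The share higher is near that of all genes tested. The median log2 change was -0.52, and 0.04 when libraries were scaled by their totals alone. ODC1, ornithine decarboxylase, measured 711 and 813 CPM in free and 194 and 176 CPM in poly (-2.04 ± 0.35). OAZ2, an antizyme that inhibits it, changed by -1.57, and ACO1, the iron regulatory protein and cytosolic aconitase, rose from 1.11 and 2.23 CPM to 13.4 and 27.3 CPM (3.60). OAZ2 and ACO1 were named after their values were seen. OAZ1, another antizyme, showed no detectable difference, with 1185 and 574 CPM in free and 1049 and 732 CPM in poly (0.02 ± 0.42), and its sign changed with the scaling. Without poly replicate 1 only ACO1 was called, and without free replicate 2 there were 2 higher and 6 lower.

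Messenger RNAs of the translation machinery often begin with a C followed by a run of pyrimidines, the 5′ terminal oligopyrimidine (TOP) tract, through which their initiation follows growth signals. The first 20 bases from the RefSeq start (GRCh38.p14) are shown for TOP mRNAs that the comparison turned on, with GAPDH, a glycolytic enzyme, for contrast, and capitals mark the C and the pyrimidine run.
RPSA: CTTTTCCgtgctacctgcag
RPLP0: CCTTCTCTCgccaggcgtcc
EEF1A1: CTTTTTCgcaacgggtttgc
TPT1: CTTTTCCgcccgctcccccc
NPM1: CTTTCCCTggtgtgattccg
GAPDH: gtccggatgctgcgcctgcg
They lie at chr3:39406720-39406739 (plus) for RPSA, chr12:120201092-120201111 (minus) for RPLP0, chr6:73521013-73521032 (minus) for EEF1A1, chr13:45341164-45341183 (minus) for TPT1, chr5:171387849-171387868 (plus) for NPM1 and chr12:6535264-6535283 (plus) for GAPDH. Of 10333 protein-coding genes tested with a RefSeq start, 550 (5.32%) began with C and at least 4 further pyrimidines, 43 of the 63 ribosomal protein genes with a start among them. Of the 550 genes 9.82% were higher and 8.18% lower in poly, against 11.4% and 5.66% of the 10333. Among the 63 ribosomal protein genes 2 were higher and 9 lower (median log2 change -0.43). All of these calls fell among the 43 that began so (median -0.62). Outside the lists of ribosomal proteins and other TOP mRNAs, 496 genes began so, of which 10.1% were higher and 6.85% lower.

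Of the 79 cytosolic ribosomal proteins, 10 were lower and 2 higher in poly, and 67 did not pass the test. Among all genes tested 9.44% were higher and 6.95% lower. Both poly libraries lay below both free ones in 46 members and above them in 9, against 27.7% and 35.7% of all genes tested. The median log2 change was -0.45, -0.03 with the length trend removed and 0.07 when libraries were scaled by their totals alone. RPSA, of the small subunit, measured 20816 and 8839 CPM in free, 6195 and 7133 CPM in mono and 2830 and 2182 CPM in poly (log2 change -2.56 ± 0.46, edgeR adjusted p = 0.0114). RPLP0, of the stalk of the large subunit, measured 20453 and 7612 CPM in free and 4864 and 3722 CPM in poly (-1.71 ± 0.47, adjusted p = 0.0422). RPS2 changed by -1.31 (adjusted p = 0.0395) and RPS3 by -1.06 (adjusted p = 0.0798). The 2 that rose, FAU (1.28) and RPL14 (1.38), were named after their values were seen. Free replicate 1 was above free replicate 2 in RPSA, RPLP0, RPS2 and RPS3.

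Ribosomal protein mRNA took its highest share in the mono libraries. These genes held 32.5% and 28.1% of all TPM in the free libraries, 43.6% and 45.3% in mono and 31.0% in each poly library, so on that scale both poly libraries lay between the free libraries. RPLP0 and RPS2 lost their call in several settings, among them when scaled by library totals, without free replicate 1, or with the trend along gene length removed. Under library totals the order of the counts turned, with 7 higher and 4 lower, and with the length trend removed there were 3 higher and 2 lower. The number of lower members was 3 with the 4 poly and free libraries only, 5 with a replicate block, 18 by DESeq2 and with at least 1 CPM in each library, 7 without free replicate 1, 20 without free replicate 2 and 0 without poly replicate 1. Ribosomal proteins have many processed pseudogenes, and reads that the counting could split between copies are uncertain.

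Of the other 22 TOP mRNAs 4 were higher, 4 lower and 14 not called, against 9.44% higher and 6.95% lower of all genes tested. Their log2 changes were below 0 in 15 and above 0 in 7, with a median of -0.42 (0.14 when scaled by library totals). EEF1A1, the elongation factor that brings aminoacyl-tRNA to the ribosome, measured 31863 and 14307 CPM in free, 23266 and 23954 CPM in mono and 6949 and 7963 CPM in poly (-1.63 ± 0.41, edgeR adjusted p = 0.0321). Its edgeR adjusted p was 0.0533 with a replicate block, 0.0586 with all 12 libraries and 0.0748 with the 4 poly and free libraries only. RACK1 (-0.91), EEF2 (-0.74) and EEF1G (-1.43) did not pass the test, and EEF2 was 0.59 without free replicate 2. Named after their values were seen, the other lower members were TPT1 (11791 and 5454 CPM in free, 9607 and 16308 CPM in mono, 969 and 1250 CPM in poly, -2.96), PABPC1, the poly-A binding protein (-2.73), and EIF3L (-2.63). The higher members were EIF4B (2.06) and, also named after their values were seen, HNRNPA1 (2.25), NPM1 (1.96) and IMPDH2 (1.79). Both TPT1, which was lower, and NPM1, which was higher, begin with the tract printed above. None of the 8 was called without poly replicate 1, and EEF1A1 was not called with library totals (-1.05, adjusted p = 0.0683).

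Among 33 listed initiation factors 8 were higher and 2 lower, against 9.44% and 6.95% of all genes tested. Their median log2 change was 0.85. The list leaves out EIF3L, an initiation factor subunit counted above with the other TOP mRNAs. The 4 listed members with the highest CPM did not pass the test, namely EIF4A1 (0.85), EIF6 (0.39), EIF5A (0.03) and EIF1 (-0.14). EIF5A and EIF1 changed sign with the scaling. EIF3L, outside the list, was above EIF1 and EIF6 in free, at 1865 and 998 CPM. It was lower in poly, at 213 and 249 CPM (-2.63, edgeR adjusted p = 0.00969). The large scaffold EIF4G1, which bridges cap and ribosome, measured 11.01 and 21.9 CPM in free, 54.1 and 98.7 CPM in mono and 167 and 367 CPM in poly (4.02 ± 0.61, edgeR adjusted p = 0.00921). EIF3A, the largest subunit of eIF3, changed by 3.33. The cap-binding protein EIF4E was lower, at 47.8 and 28.98 CPM in free, 36.4 and 88.6 CPM in mono and 8.81 and 11.7 CPM in poly (-1.91, adjusted p = 0.0419), as was its inhibitor EIF4EBP2 (-2.50, adjusted p = 0.0250). EIF4G1, EIF3A, EIF4E and EIF4EBP2 were named after their values were seen. EIF4E lost its call with library totals, with the length trend removed, with a replicate block and without free replicate 1, and EIF4EBP2 with library totals, with a replicate block (adjusted p = 0.0506) and with the 4 poly and free libraries only. Under the replicate block 6 of the listed factors were higher and none lower, and under library totals 15 and none. EIF3L, outside the list, was lower in both settings (edgeR adjusted p = 0.0218 and 0.0123). Fewer listed factors were called without poly replicate 1.

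Aminoacyl-tRNA synthetases charge tRNAs with their amino acids. Of the 20 cytosolic members 12 were higher in poly and none was lower, against 9.44% and 6.95% of all genes tested. All 20 log2 changes were above 0, and the median was 1.80. Of the 4 members with the highest CPM, 3 did not pass the test, with FARSA at 0.27, QARS1 at 0.15 and VARS1 at 1.42. SARS1 was just inside it, with 103 and 89.6 CPM in free and 216 and 236 CPM in poly (1.23 ± 0.36, edgeR adjusted p = 0.0496). It lost its call under 5 alternatives other than those that left out a poly library. TARS1, among the leading genes above, measured 0.831 and 2.68 CPM in free and 18.8 and 60.7 CPM in poly. Fewer members were called higher without poly replicate 1 or without free replicate 1.

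Chaperones were the list with the highest median, 2.63. In poly 27 of 30 were higher and none lower, against 9.44% and 6.95% of all genes tested. The 1 member below 0, at -1.27, had both poly libraries below both free ones. By DESeq2, with no filter and with at least 1 CPM in each library 27 were higher and 1 lower. HSPA8, the constitutive cytosolic Hsp70, measured 356 and 328 CPM in free, 472 and 567 CPM in mono and 833 and 1180 CPM in poly (1.56 ± 0.36, edgeR adjusted p = 0.0243). HSP90AB1, the constitutive cytosolic Hsp90, measured 139 and 152 CPM in free and 651 and 1517 CPM in poly (2.90 ± 0.47). CCT3, of the chaperonin that folds actin and tubulin, measured 179 and 170 CPM against 679 and 890 CPM (2.17 ± 0.37). HSPB1, a small heat shock protein, was highest in mono (1287 and 1343 CPM) and did not pass the test (0.82, adjusted p = 0.196). The list held 0.15% and 0.14% of TPM in the free libraries and 0.57% and 0.83% in the poly libraries. With the length trend removed 23 members were called higher, and fewer were without poly replicate 1.

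Proteasome subunits form the protease that degrades ubiquitinated proteins. In all, 23 of 30 were higher and none lower, against 9.44% and 6.95% of all genes tested. The median was 1.91, and 28 of 30 had both poly libraries above both free libraries, as did 35.7% of all genes tested. PSMB4 measured 172 and 124 CPM in free, 253 and 259 CPM in mono and 452 and 428 CPM in poly (1.57 ± 0.36, edgeR adjusted p = 0.0238). PSMB5, a catalytic subunit, measured 152 and 110.4 CPM in free, 491 and 462 CPM in mono and 449 and 352 CPM in poly (1.61 ± 0.37), with mono as high as poly. PSMD8 (1.07) and PSMB2 (-0.02) did not pass the test, and PSMB2 changed sign with the scaling. None was called without poly replicate 1.

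Most subunits of oxidative phosphorylation are encoded in the nucleus and translated by cytosolic ribosomes. Of 75 measured, 22 were higher in poly and none was lower, against 9.44% and 6.95% of all genes tested. Another 53 did not pass the test, and the median log2 change was 0.89. ATP5F1B, the catalytic beta subunit of ATP synthase, measured 318 and 286 CPM in free, 256 and 223 CPM in mono and 1184 and 1450 CPM in poly (2.12 ± 0.35, edgeR adjusted p = 0.00992). UQCRQ, a short subunit of complex III, was highest in mono, with 400 and 371 CPM in free, 1857 and 2332 CPM in mono and 461 and 377 CPM in poly (0.12 ± 0.34). ATP5MC3 (0.51) and CYC1 (1.24, adjusted p = 0.0609) did not pass the test. UQCRQ was -0.01 when only genes with 1 CPM in each library were kept. Scaling by library totals called 47 of the 75 higher, 35 were higher by DESeq2, and none was called without poly replicate 1.

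Mitochondrial ribosomal proteins gave 13 higher and 1 lower of 74, against 9.44% and 6.95% of all genes tested. With at least 1 CPM in each poly and free library 15 of 71 were higher, as were 1595 of 9664 genes. The median change of the 74 was 0.58. The 4 with the highest CPM all lay below 0 without passing the test, MRPL37 at -1.0, MRPL20 at -0.96, MRPL12 at -0.69 and MRPS12 at -0.52. MRPL12 changed sign without free replicate 1 and MRPS12 with library totals. MRPL42, named after its values were seen, was the lower member, at 43.2 and 50.4 CPM in free and 7.66 and 10.8 CPM in poly (-2.34, edgeR adjusted p = 0.0170). Without free replicate 2, 7 were lower, MRPL37, MRPL20 and MRPL12 among them. Scaling by library totals called 29 higher and DESeq2 22, and none was called without poly replicate 1.

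Glycolytic enzymes had 8 higher of 18 and none lower, against 9.44% and 6.95% of all genes tested. All 18 log2 changes were above 0, with a median of 1.39. ENO1, enolase, measured 1342 and 1105 CPM in free, 835 and 569 CPM in mono and 3625 and 3376 CPM in poly (1.52 ± 0.35, edgeR adjusted p = 0.0247). PKM, pyruvate kinase, was lowest in mono as well (820 and 464 CPM) and did not pass the test (0.90). GAPDH, often used as a reference gene, measured 8436 and 3663 CPM in free and 7522 and 6729 CPM in poly, and the groups overlapped (0.24 ± 0.42, adjusted p = 0.737). It was -0.17 without free replicate 2, as ALDOA turned from 0.31 to -0.07. The list kept 2 higher members without poly replicate 1.

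**Figure D3:**
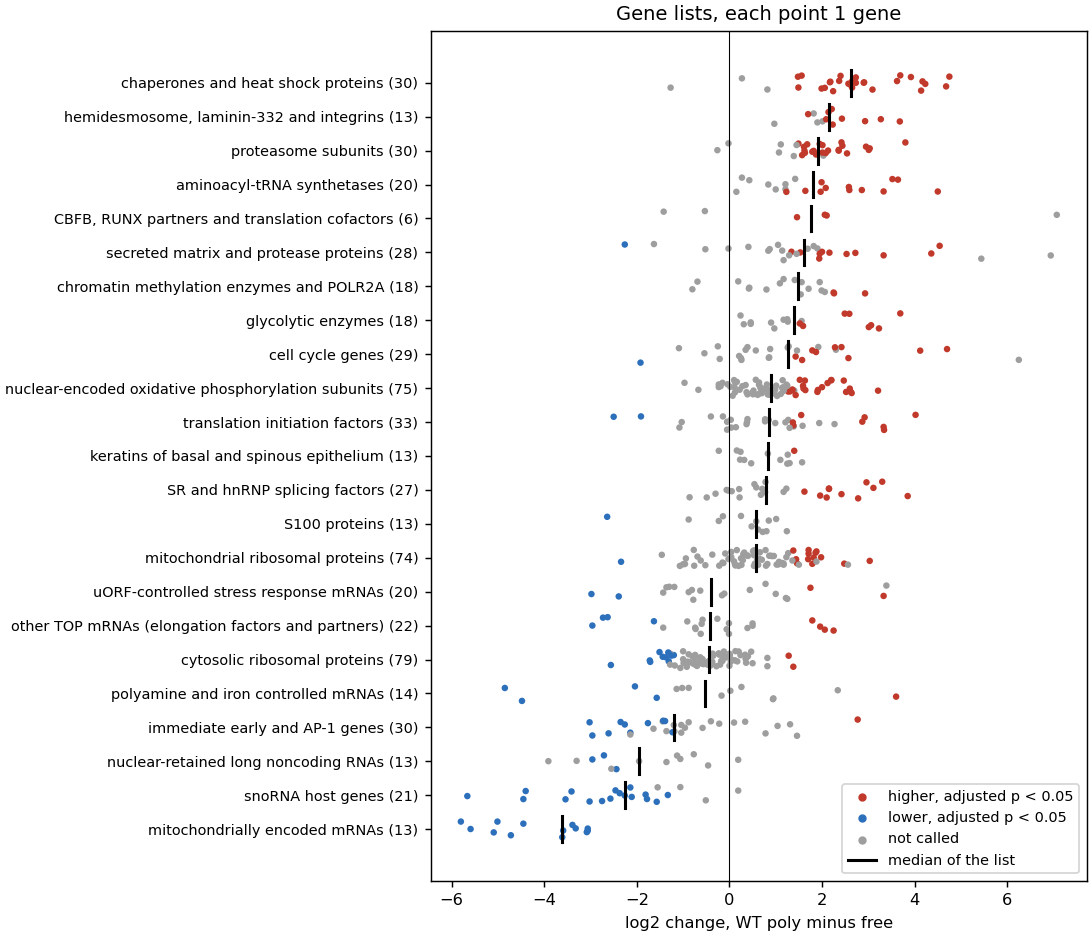
Log2 change of poly minus free (horizontal axis) for the measured members of 23 gene lists, 1 point per gene, red where higher, blue where lower and grey where not called, with a black bar at each list's median. The medians run from -3.61 for mitochondrially encoded mRNAs to 2.63 for chaperones, and the number of measured members stands in brackets. Points of a gene at 0 counts in one fraction are placed at the fitted value, which is no bound.

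Hemidesmosome, laminin and integrin components anchor basal cells to the basement membrane. Of 13 measured, 9 were higher and none was lower, against 9.44% and 6.95% of all genes tested. The other 4 did not pass the test, and the median was 2.14. ITGB4, the integrin beta subunit of the hemidesmosome, measured 78.9 and 141 CPM in free, 169 and 224 CPM in mono and 502 and 532 CPM in poly (2.23 ± 0.42, edgeR adjusted p = 0.0129). ITGA3 changed by 2.14 and PLEC, the giant linker plectin, by 2.09, while CD151, a tetraspanin, stood at 0.97 and did not pass the test. The laminin chain LAMB3 and the integrin ITGA6, also basal markers, changed by 3.68 and 2.93. Both were named after their values were seen, and LAMB3 had the largest change of the list. The count was 6 with the length trend removed, where PLEC and ITGA6 lost their call, and 2 without poly replicate 1.

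Keratins are the intermediate filament proteins of these cells. Of the 13, 1 was higher and none lower, near the 9.44% of all genes tested that were higher, with a median of 0.83. Both poly libraries lay above both free ones in 10 and below them in 1, against 35.7% and 27.7% of all genes tested. KRT81 measured 3344 and 2045 CPM in free and 7818 and 6436 CPM in poly (1.40 ± 0.37, edgeR adjusted p = 0.0381). KRT5 measured 1472 and 2221 CPM in free, 627 and 499 CPM in mono and 2996 and 3573 CPM in poly, without overlap, but did not pass the test (0.83, adjusted p = 0.144). KRT17 (0.32) and KRT7 (0.23) were closer still. Keratins share long stretches of sequence, and KRT81 has close relatives, so its reads are uncertain. Without free replicate 2, 5 keratins were higher, by library totals 4, and KRT81 was not called without poly replicate 1.

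Secreted matrix and protease proteins included 11 higher and 1 lower of 28 measured, against 9.44% and 6.95% of all genes tested. The median was 1.61, or 1.49 with the gene at 0 in the free libraries set at its bound. AGRN, agrin of basement membranes, measured 27.5 and 25.3 CPM in free and 89.1 and 116 CPM in poly (1.95 ± 0.38, edgeR adjusted p = 0.0139). LAMA5, a laminin chain, changed by 1.34. TIMP1, an inhibitor of metalloproteases (1.29, adjusted p = 0.0551), and TGFBI (1.05) did not pass the test. CCN1, a matricellular protein that is also an immediate early gene and was named after its values were seen, was the lower member (65.9 and 89.2 CPM in free, 15.8 and 16.7 CPM in poly, -2.26). With the length trend removed 6 were higher, AGRN and LAMA5 no longer among them, whereas 7 were higher without free replicate 1 and 1 without poly replicate 1.

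S100 proteins are small calcium-binding proteins, and several of their mRNAs were highest in mono. S100A2 measured 4331 and 4349 CPM in free, 19352 and 23450 CPM in mono and 9962 and 7537 CPM in poly (1.01 ± 0.32, edgeR adjusted p = 0.0626). S100A6 showed the same order, with 1789 and 1883 CPM in free, 8085 and 9657 CPM in mono and 3729 and 2869 CPM in poly (0.85). S100A14 (0.48) and S100A16 (-0.88) overlapped between fractions. Of 13 members none was higher and 1 was lower, S100A3 (-2.64, adjusted p = 0.0103), named after its value was seen. The share lower is near the 6.95% of all genes tested. The count of 0 higher rose to 6 by library totals and 3 with the length trend removed or without free replicate 2, and S100A3 was not called without poly replicate 1.

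Immediate early genes encode transcription factors and regulators with short-lived mRNAs that growth factors induce. Of 30 listed, 10 were lower and 1 higher in poly, against 6.95% and 9.44% of all genes tested. The median was -1.20. Without free replicate 2 there were 10 lower and 4 higher, with a median of -0.35, and DESeq2 called 16 lower and 3 higher. FOS, of the AP-1 factor, measured 1446 and 2166 CPM in free, 514 and 398 CPM in mono and 584 and 485 CPM in poly (-1.76 ± 0.38, edgeR adjusted p = 0.0192). DUSP1, a phosphatase of MAP kinases, measured 3523 and 4942 CPM in free, 984 and 832 CPM in mono and 2034 and 1564 CPM in poly (-1.23 ± 0.35, adjusted p = 0.0471). For DUSP1 the mono libraries were the lowest of the 6. EGR1 was uneven between free libraries (401 and 4788 CPM), with 635 and 545 CPM in poly, so it did not pass the test (-2.14), and it was 0.63 without free replicate 2. IER2 overlapped between fractions and did not pass the test (-0.58, adjusted p = 0.343). DUSP6, a phosphatase of ERK named after its values were seen, was higher (8.19 and 8.09 CPM in free, 50.4 and 60.3 CPM in poly, 2.77). DUSP1 lost its call with library totals, with all 12 libraries, with a replicate block and in other settings. Without poly replicate 1 none was called.

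Stress response mRNAs with upstream reading frames gave 2 higher and 2 lower of 20, a share close to the 9.44% and 6.95% of all genes tested, with a median of -0.40 (0.11 with library totals). ATF4 (chromosome 22, 39519695 to 39522685, GRCh38), the transcription factor of the integrated stress response, measured 6595 and 3931 CPM in free, 3275 and 2917 CPM in mono and 696 and 640 CPM in poly. Both poly libraries lay far below every other library. The log2 change was -2.98 ± 0.39 (edgeR adjusted p = 0.00704). The 5′ UTR of its longest-coding GENCODE 29 transcript holds 7 ATG triplets, against a median of 1 over the genes tested. SLC35A4, whose 5′ UTR holds 20, stood at -1.30, TRIB3 (2 triplets) at -1.19 and CEBPB (none) at -0.63, and these did not pass the test. The remaining calls were named after their values were seen. They were CEBPA (1 triplet, -2.39), ASNS, asparagine synthetase (2 triplets, 1.75), and EPRS1, a synthetase counted above (1 triplet, 3.33). Of the 4, EPRS1 alone was called without poly replicate 1, and 4 members were higher without free replicate 2. DESeq2 called 3 higher and 5 lower.

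Of 29 measured cell cycle genes 9 were higher and 1 lower, against 9.44% and 6.95% of all genes tested. Their median was 1.26. CDKN1A, the p21 inhibitor, was the lower one, at 1101 and 1315 CPM in free, 826 and 425 CPM in mono and 372 and 265 CPM in poly (-1.92 ± 0.43, edgeR adjusted p = 0.0220). CCND3 (-1.09), CDC20 (0.57) and CDK4 (-0.54) did not pass the test, and CDK4 changed sign with library totals. With the length trend removed 5 were higher, as without free replicate 1, and without poly replicate 1 there were 2 higher and none lower.

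SR and hnRNP proteins, which bind pre-mRNA in splicing, had 11 higher of 27 and none lower, against 9.44% and 6.95% of all genes tested. Their median was 0.78. HNRNPC measured 155 and 143 CPM in free, 197 and 210 CPM in mono and 477 and 440 CPM in poly (1.62 ± 0.35, edgeR adjusted p = 0.0191). PTBP1 (0.22), HNRNPL (0.68) and HNRNPA0 (0.71) did not pass the test, and PTBP1 turned to -0.26 without free replicate 1. The count was 2 without poly replicate 1.

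Of 18 enzymes of chromatin methylation and POLR2A, 3 were higher and none lower, against 9.44% and 6.95% of all genes tested. Their median was 1.47. The median coding length of the list was 5058 bases. In the longest 10% of nuclear protein-coding genes, from 3483 coding bases on, 21.2% were higher. KDM5C, a demethylase, measured 11.4 and 17.6 CPM in free, 48.6 and 51.9 CPM in mono and 104 and 117 CPM in poly (2.93 ± 0.41, edgeR adjusted p = 0.00819). POLR2A, the largest subunit of RNA polymerase II, changed by 2.26, and SETD1A, named after its value was seen, by 2.25, and both lost their call with the length trend removed. DNMT1 (1.71, adjusted p = 0.0604) and EHMT2 (1.56) did not pass the test. The count was 10 by DESeq2 and with no filter, 8 with all 12 libraries and with at least 1 CPM in each library, 7 with library totals, 6 with a replicate block and without free replicate 2, 2 without free replicate 1 and 0 without poly replicate 1. With the length trend removed 1 was higher and the median was 0.40.

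The study asks how CBFB, with hnRNPK and eIF4B, acts on the translation of RUNX1 mRNA, so the WT levels of these genes are given. CBFB itself measured 6.65 and 15.6 CPM in free, 9.91 and 7.69 CPM in mono and 7.06 and 8.43 CPM in poly, and the poly values lay within the free values (-0.53 ± 0.50, edgeR adjusted p = 0.501). RUNX1 measured 17.9 and 35.3 CPM in free, 12.6 and 10.9 CPM in mono and 9.61 and 10.3 CPM in poly, both poly libraries below both free ones, just outside the threshold (-1.42 ± 0.44, adjusted p = 0.0618). RUNX1 was called lower by DESeq2 (adjusted p = 0.0106), and by edgeR with at least 1 CPM in each library (0.0177) and with no filter (0.0372). It was also called with all 12 libraries (0.0417) and with the length trend removed (0.0294). It was not called with library totals (-0.89, edgeR adjusted p = 0.218), with the 4 poly and free libraries only (0.0864) or with a replicate block (0.084). Nor was it called with DESeq2 size factors in edgeR (0.0512) or without mitochondrially encoded genes (0.0616). Its log2 change was -1.82 without free replicate 1 and -0.77 without free replicate 2. HNRNPK measured 73.7 and 68.3 CPM in free, 58.5 and 59.5 CPM in mono and 272 and 337 CPM in poly (2.10 ± 0.36, adjusted p = 0.0107). EIF4B, a cofactor of the initiation helicase, measured 33.0 and 33.9 CPM in free, 223 and 213 CPM in mono and 115 and 165 CPM in poly (2.06 ± 0.38, adjusted p = 0.0122). NOTCH3, a receptor of the Notch pathway, changed by 1.46 (adjusted p = 0.0376). It lost its call with a replicate block, without free replicate 1 and with the length trend removed, where its change was 0.23. Of the 6 measured in this list 3 were higher and none lower, against 9.44% and 6.95% of all genes tested. The median was 1.76, and 1 of the 6 was at 0 counts in both libraries of a fraction. Without free replicate 1 there were 2 higher and 1 lower, and none was called without poly replicate 1. CBFB turned to 0.30 without free replicate 2.

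Coding length went with the change across genes. In the shortest 10% of 12840 nuclear protein-coding genes, with coding regions up to 543 bases, 3.78% were higher and 12.8% lower, with a median log2 change of -0.37. The share higher reached 21.2% in the longest 10%, from 3483 bases on, where 1.17% were lower and the median was 1.30. Across these genes Spearman's rank correlation between coding length and the change was 0.32 and Pearson's r 0.17, and genes are not independent replicates. For 3′ UTR length the rank correlation was 0.07, and for 5′ UTR length and GC content it was -0.04. Lists differ in coding length, with a median of 303 bases for S100 proteins, 471 for ribosomal proteins, 1640 for chaperones and 3579 for hemidesmosome genes. With the trend along gene length removed, 1024 genes were higher and 1011 lower.

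Genes with more ATG triplets in the 5′ UTR were called lower in larger shares. Of 5947 genes with none, 13.6% were higher and 3.70% lower (median log2 change 0.46), whereas of 558 genes with 8 or more, 6.45% were higher and 8.06% lower (median -0.10). In between, the median was 0.20 with 1 triplet, 0.08 with 2 to 3 and -0.04 with 4 to 7. Across 12398 genes Spearman's rank correlation of the number of triplets with the change was -0.13. Triplets were counted on the transcript strand of the longest-coding GENCODE 29 transcript, which need not be the one that MCF10A cells use.

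**Figure D4:**
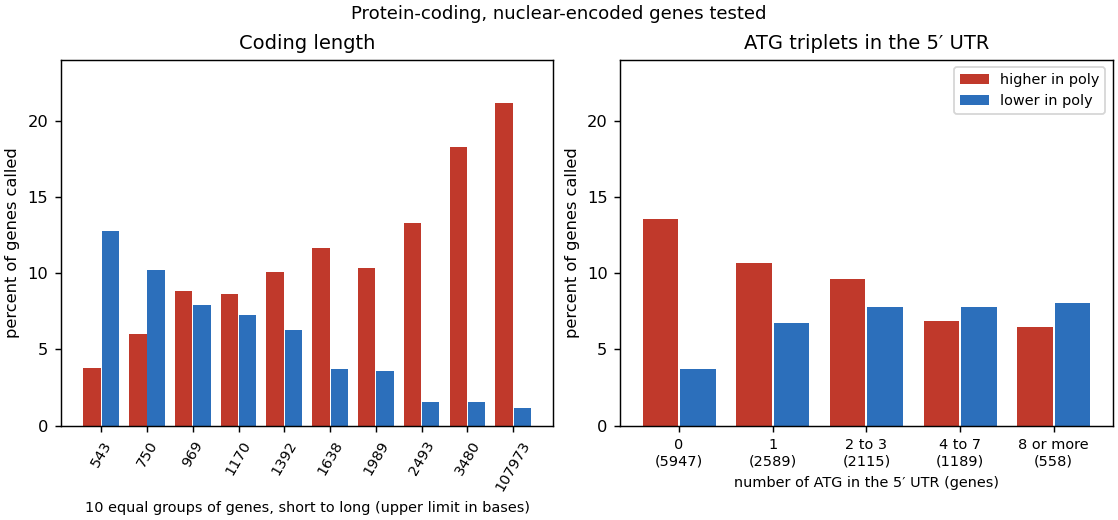
Percent of genes higher (red) and lower (blue) in poly, for 10 equal groups of 12840 nuclear protein-coding genes by coding length (left, upper limit of each group in bases) and for the number of ATG triplets in the 5′ UTR (right, number of genes in brackets). The red bars grow from 3.78% to 21.2% with coding length and shrink from 13.6% to 6.45% with the number of triplets.

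**Figure D5:**
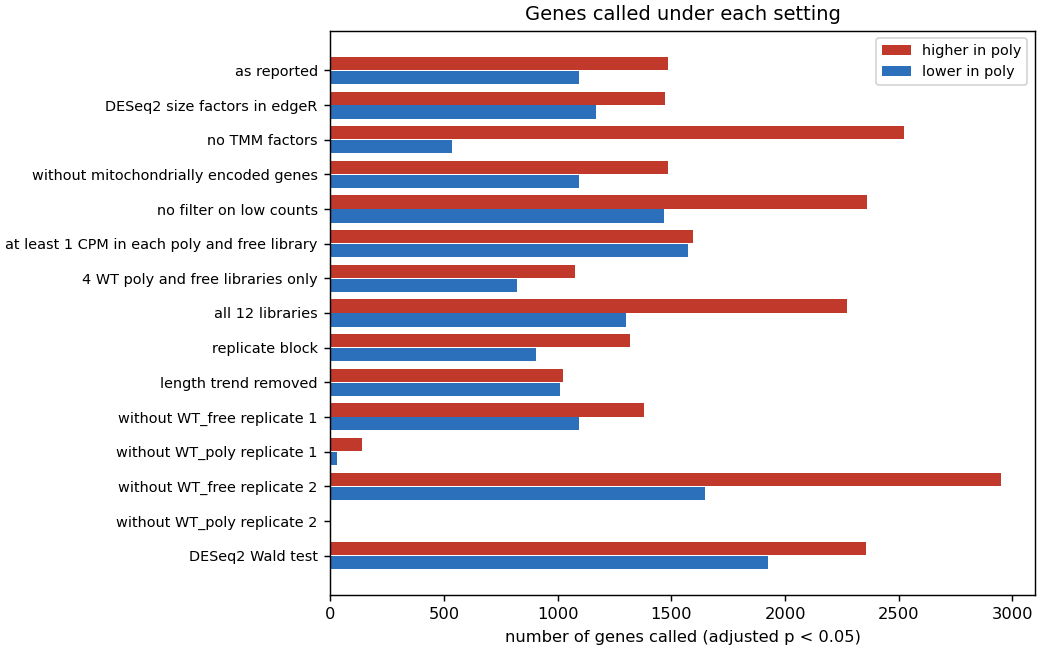
Number of genes called higher (red) and lower (blue) in poly at an edgeR or DESeq2 adjusted p under 0.05, as reported and under 14 alternatives. The bars are shortest without poly replicate 1 (139 and 28) and at 0 without poly replicate 2, and longest without free replicate 2 (2950 higher) and by DESeq2 (1925 lower).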

How the data were processed

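WT MCF10A libraries of the free, mono and poly fractions were analysed (2 each). The labels name a TruSeq mRNA kit, and the submitters' processing notes name Trimmomatic, STAR, RSEM and hg19, with versions not given in the sources used here. The authors deposited RSEM expected counts, estimated and not normalized, for 56632 Ensembl genes. The authors also deposited TPM, scaled by gene length and to the same total in every library, which served here only for shares of a library. After rounding, the expected counts of the 6 WT libraries entered 1 model in R 4.3.3 with edgeR 4.0.16, using filterByExpr (15737 genes), TMM factors and the quasi-likelihood test of poly minus free with Benjamini-Hochberg adjustment. SE was obtained from the change and its F statistic. CPM in the text are TMM-scaled. DESeq2 1.42.0 was an alternative, with other scalings, filters, library sets, a replicate block, a trend along gene length removed by lowess and each library left out. The fit was tested on simulated data. WT poly totals were 63886726 and 50451339 counts, so 3 counts, the smallest level read as present, are 4.7e-06% and 5.9e-06% of a library, which covers counting error only. Library replicates differed by far more than sampling noise.

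Gene symbols came from a table of identifiers, which named 91.7% of the genes tested, and gene types, lengths and coordinates from GENCODE 29 (GRCh38), which held 96.5%. These coordinates are not those of the authors' build. The strand setting of the counting was not given in the sources used here.

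The genes named by rule are the 12 largest increases and decreases among protein-coding genes, and up to 5 each of other gene types. These had an adjusted p under 0.05, a mean of at least 20 CPM and no overlap between fractions. Also named by rule are the 4 most abundant members of each of 23 lists, and CBFB, RUNX1, HNRNPK, EIF4B and GAPDH. Further genes, such as EIF4G1, TPT1 and LAMB3, were named after their values were seen. Members and lists were chosen with earlier results of these data known. Python 3.11.15 (pandas 2.3.3, numpy 2.4.6, matplotlib 3.10.9) was used for the remaining steps. Items withheld from the text are not reported here.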

Additional observations from a re-analysis of the deposited data

How the results depend on the processing

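The calls depended most on single libraries, and a lone library is assumed to vary like the other fractions. Leaving out each library in turn gave 0 to 2950 higher and 0 to 1647 lower genes. Higher genes numbered 2522 with library totals only, 2361 with no filter on low counts, 2273 with all 12 libraries and 2357 by DESeq2, and lower genes 534 with library totals only and 1925 by DESeq2. Each other count under an alternative that kept all replicates was within 1.5 times the reported one. The cause was not tested. Replicate numbers were not shown to pair the samples, since same-numbered deviations correlated by -0.0354 between free and mono, 0.0493 between free and poly and 0.221 between mono and poly. With a replicate block 1316 genes were higher and 905 lower. A 2-fold minimum changed neither count.

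Of 145 genes named, with those named after their values were seen included, 93 were called. The genes that changed sign were not called as reported. With library totals only, EIF1 was at 0.41, MRPS12 at 0.03, PSMB2 at 0.51, NORAD at 0.10 and CDK4 at 0.02 on the log2 scale. With DESeq2 size factors or by DESeq2 EIF5A was at -0.03 and OAZ1 at -0.04. With at least 1 CPM in each library EIF5A was at -0.11, UQCRQ at -0.01 and OAZ1 at -0.12. With the length trend removed EIF1 was at 0.08 and PTBP1 at -0.01, and with no filter PSMB2 was at 0.02. Leaving out each library in turn, the range was -1.40 to 0.59 for EEF2, -0.34 to 0.66 for EIF5A, -0.39 to 0.27 for EIF1, -1.13 to 0.11 for MRPL12, -0.03 to 0.26 for UQCRQ, -0.25 to 0.17 for PSMB2, -0.17 to 0.96 for GAPDH, -0.07 to 0.98 for ALDOA, -3.02 to 0.63 for EGR1, -0.34 to 0.63 for OAZ1, -0.26 to 1.02 for PTBP1, -0.98 to 0.23 for CDK4, -1.36 to 0.03 for S100A16 and -1.01 to 0.30 for CBFB.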
